A study of Sus scrofa with 24 samples.

Results

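Of the 1587 miRNAs counted in differentiating pig adipocytes, 1224 were newly predicted, and 8 of these are described here: novel_miR_21, novel_miR_298, novel_miR_476, novel_miR_623, novel_miR_783, novel_miR_848, novel_miR_994 and novel_miR_1222. They were picked by name from the same 24 libraries because their time courses depended strongly on the source of the cells. The values that chose them are therefore given as a description: no p-value is printed, and the limma calls given further on only place the 8 among all miRNAs and test nothing. All 8 were higher in subcutaneous adipocytes on day 8 than on day 0, with most of the difference arising after day 2. In intramuscular adipocytes, 6 of the 8 had no read at all before day 8. novel_miR_298 was also far higher on day 8 in intramuscular adipocytes, and novel_miR_1222 had reads in every library.

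Small RNA was sequenced from cultured cells of Yorkshire piglets (6 days old, 3 animals), with 3 libraries in each of 8 groups. Preadipocytes released by collagenase from back subcutaneous fat form the BF groups, and those from the longissimus dorsi, a muscle of the back, form the IMF groups. BF-0d and IMF-0d are near-confluent cells before induction. The later groups were started in the same induction medium with 3-isobutyl-1-methylxanthine, dexamethasone and insulin, which was replaced after 2 days by medium with insulin and after another 2 by growth medium, and were collected on day 2 (BF-2d, IMF-2d), day 4 (BF-4d, IMF-4d) or day 8 (BF-8d, IMF-8d). The sources name no transgene and no sort, so each library is taken as a mixed primary culture. The sources used here do not tie replicate numbers to piglets, and the spread between the 3 libraries of a group may be partly technical.

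A miRNA is cut by Drosha and Dicer from a hairpin-shaped precursor and guides an Argonaute protein to messenger RNAs. Pairing of its seed, bases 2 to 8, with a target site largely sets which messages it lowers. Adipocyte differentiation is known to be tuned by miRNAs, some raising and others lowering the programme of fat storage. A newly predicted miRNA is a place where small reads stack on a genomic stretch that can fold into a hairpin. Its name here is only a number in the study's own list and has no link to the miRBase miRNA of the same number.

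Sequences of 4 of the 8 were at hand, in the list published with the study. The mature forms are shown because their length and seeds set them beside other miRNAs. Capitals mark the seed.
novel_miR_623: cAAUGCAGcuagaaaaacu
novel_miR_848: cGUGGAUAucuacuuugc
novel_miR_994: uAUGGAUGugauugcuuu
novel_miR_1222: uCUACAGUggcuguggcu

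All 4 are short. novel_miR_623 has 19 nt and the other 3 have 18 nt, whereas the median was 22 nt for both the new and the known miRNAs. A length of 18 or 19 nt was held by 49 of the 600 new miRNAs with a sequence (8.17%) and by 3 of 358 known ones (0.838%). No seed was shared among the 4. The seed of novel_miR_1222 occurs in 1 other miRNA of the list, the known ssc-miR-139-5p of 22 nt:
ssc-miR-139-5p: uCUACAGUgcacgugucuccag
The seeds of the other 3 occur in no other sequence of the list.

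The 4 precursors lie on different chromosomes of Sscrofa11.1, in every case at a single place. That of novel_miR_623 is at chr4:27509168-27509275 on the minus strand, outside annotated genes, and the nearest gene, LOC106509999, is 26138 bp away. The precursor of novel_miR_994 is at chr14:104733139-104733246 on the plus strand, also outside genes, 37268 bp from MYOF, which encodes the membrane protein myoferlin. novel_miR_848 is at chr6:89873246-89873353 on the plus strand, within an intron of CSMD2 but on the opposite strand. novel_miR_1222 is at chr17:32590810-32590917 on the plus strand, outside genes, 3306 bp from LOC100526084. Of the new miRNAs that could be placed (589), 24.4% lay outside genes, 11.5% antisense to an intron and 46.0% in a sense intron. No other miRNA of the list lay within 10 kb of any of the 4 or had the same mature sequence.

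The mature sequences of novel_miR_623, novel_miR_848 and novel_miR_994 each have 1 exact copy in the genome, as do 71.7% of the new miRNAs. That of novel_miR_1222 has 237 copies. All of them fall in soft-masked (repeat) sequence, and its reads may come from any of them. More than 100 copies were found for 69 of the 600 new miRNAs (11.5%) and for 1 of the 358 known ones.

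The predicted hairpins were weaker than the median in 4 of 4. The folding energies of the precursors, per nucleotide, were -0.261 kcal/mol for novel_miR_623 and for novel_miR_994, -0.293 for novel_miR_1222 and -0.360 for novel_miR_848. The median was -0.398 for the new and -0.445 for the known miRNAs, and 586 of the 600 new ones folded at least as strongly as the weakest of the 4. The precursors of novel_miR_848 and novel_miR_994 are printed, with the mature part in capitals, as the strongest and one of the weakest of the 4 and as examples of the 2 arms. The mature part lies nearer the 5′ end of the precursor in novel_miR_848, novel_miR_623 and novel_miR_1222 and nearer the 3′ end in novel_miR_994. Whether it forms an arm of a single hairpin in the predicted fold was not checked.
novel_miR_848 precursor: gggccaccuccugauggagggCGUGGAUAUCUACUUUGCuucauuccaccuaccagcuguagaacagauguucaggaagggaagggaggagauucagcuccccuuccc
novel_miR_994 precursor: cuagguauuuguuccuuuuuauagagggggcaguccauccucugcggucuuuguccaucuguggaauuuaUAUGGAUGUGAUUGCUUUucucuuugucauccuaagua
In the predicted folds, 15 of the 18 mature bases of novel_miR_848 and 12 of the 18 of novel_miR_994 were paired. The median share of paired mature bases was 79.2% for the new miRNAs. It was 83.3% in novel_miR_848, 77.8% in novel_miR_1222, 68.4% in novel_miR_623 and 66.7% in novel_miR_994. The plot of mature length against folding energy shows the 4 at its short end, with novel_miR_848 the nearest of them to the median energy.

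**Figure D1:**
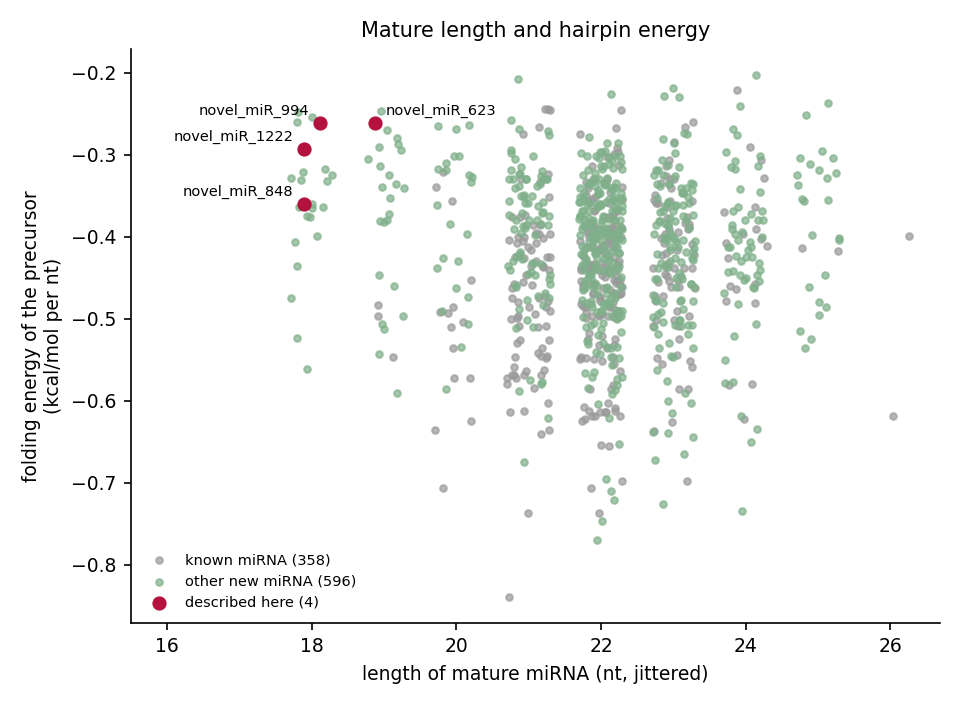
Length of the mature sequence (nt, horizontal, points spread sideways for legibility) against the folding energy of the precursor divided by its length (kcal/mol per nt, vertical, less negative is weaker) for 358 known miRNAs (grey), 596 other new miRNAs (green) and the 4 described here with a sequence (red). The 4 lie at 18 to 19 nt and between -0.360 and -0.261 kcal/mol per nt.

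Levels are given in TPM, which here are reads per 1000000 miRNA reads of a library. The libraries held from 4954845 to 16863560 such reads, so that 1 read is worth from 0.0593 to 0.202 TPM and 3 reads, the smallest amount taken as shown by a library, from 0.178 to 0.605 TPM. Among the marker lists, the summed level of 10 miRNAs of adipocyte differentiation was 185000 to 233700 TPM in BF-0d and 303400 to 461200 in BF-8d, and 183100 to 259500 in IMF-0d and 248500 to 354600 in IMF-8d. Most of it came from ssc-miR-148a-3p and ssc-miR-143-3p, with means of 170900 and 74730 TPM over the 24 libraries. From BF-0d to BF-8d these 2 changed by 1.32 and -0.44 on the log2(TPM + 1) scale. Of the 10, 4 were called higher and 0 lower from BF-0d to BF-8d, and 6 and 0 from IMF-0d to IMF-8d. Of all 430 miRNAs tested, 27.9% were called higher from BF-0d to BF-8d and 19.8% from IMF-0d to IMF-8d. Of 5 miRNAs known to fall in adipogenesis, 2 were called higher and 2 lower in BF, and 0 and 1 in IMF. The 5 measured skeletal muscle miRNAs summed to 818 to 1012 TPM in BF-0d and 1324 to 2361 in BF-8d, with 2 of the 3 tested called higher and 1 lower, and to 909 to 1738 in IMF-0d and 982 to 1631 in IMF-8d, with 1 called higher. The 7 of blood and immune cells summed to 1.19 to 1.99 TPM in BF-0d, 3.71 to 4.44 in BF-8d, 1.31 to 1.87 in IMF-0d and 6.68 to 8.08 in IMF-8d, and the endothelial pair to 38.0 to 71.2 in BF-0d, 51.2 to 90.9 in BF-8d, 18.2 to 40.4 in IMF-0d and 24.6 to 34.8 in IMF-8d. Only 1 of the 7 was tested, and it was called higher on day 8 in both BF and IMF. In the endothelial pair, 1 was called higher in BF and 0 in IMF. The part of the cells marked by these lists in the levels of the 8 was not tested. In bulk cultures, fewer cells of a type and less RNA per cell cannot be told apart.

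Together, the 8 miRNAs went from traces to a visible share of the new miRNAs. Their summed level was 0.633, 0.862 and 1.07 TPM in the 3 BF-0d libraries and 310.6, 542.3 and 355.4 TPM in BF-8d. They made up from 8.58% to 13.2% of all reads on new miRNAs in BF-8d, against 0.546% to 0.627% in IMF-8d, where novel_miR_298 gave most of them. All 8 passed the filter of a mean of 1 TPM over the 24 libraries that 430 miRNAs passed (160 new, 270 known). novel_miR_994 was the last to pass, with a mean of 1.002 TPM, and from 45.7% (novel_miR_298) to 93.5% (novel_miR_994) of the reads of each came from BF-8d.

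**Figure D2:**
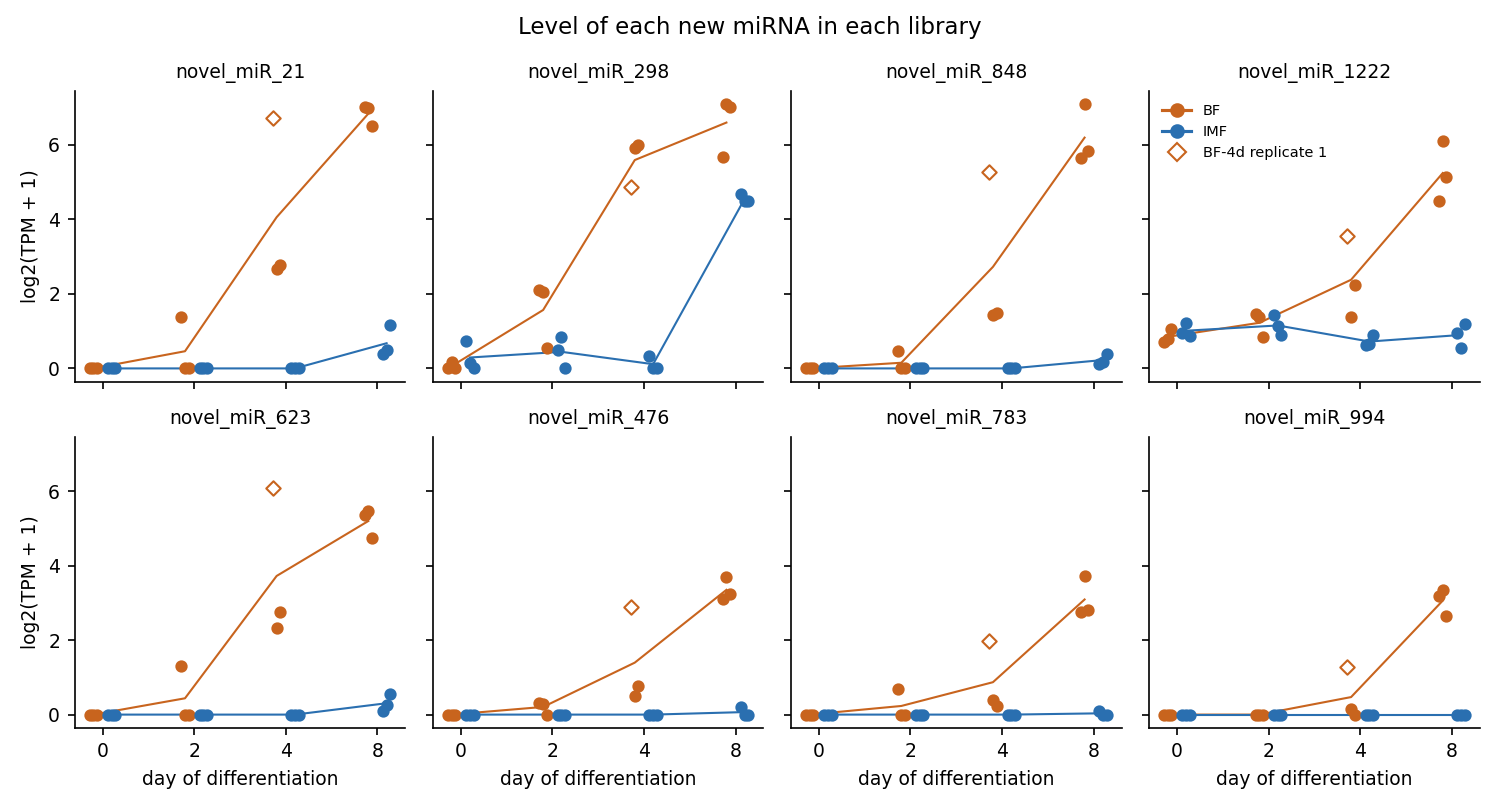
Level of each of the 8 miRNAs in each library, as log2(TPM + 1), against the day of differentiation, for BF (orange) and IMF (blue). Points are libraries, lines join the means of the 3 libraries and the open diamond is BF-4d replicate 1; 7 of the 8 have that library above the other BF-4d libraries, and novel_miR_298 has it below them.

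In BF-8d the highest mean was that of novel_miR_21, while novel_miR_298 had the higher mean over all 24 libraries (22.6 against 19.3 TPM). The order in BF-8d rests on replicate 1: without it the mean was 108.0 TPM for novel_miR_21 and 132.2 TPM for novel_miR_298. novel_miR_21 had no read in BF-0d, 13 reads in 1 BF-2d library (1.61 TPM) and none in the other 2. In BF-4d it had 105.0, 5.39 and 5.83 TPM in replicates 1, 2 and 3, and in BF-8d 128, 125 and 90.6 TPM (115 ± 20.9, mean ± SD, n = 3). Every BF-4d and BF-8d library was above every BF-0d and BF-2d library, and BF-4d replicate 1 lay within the range of BF-8d. The level in BF-8d was at least 531-fold higher than in BF-0d, taking 3 reads per library as the floor. In IMF it had no read on days 0, 2 and 4 and 4, 6 and 16 reads on day 8 (0.305, 0.401 and 1.23 TPM), and BF-8d was 178-fold above IMF-8d, or 325-fold without IMF-8d replicate 3.

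novel_miR_848, the one antisense to a CSMD2 intron, had a like course at a lower level. It had no read in BF-0d and 3 reads in BF-2d, all in replicate 1. The BF-4d libraries had 37.5, 1.69 and 1.80 TPM and the BF-8d libraries 49.1, 137 and 56.1 TPM (80.6 ± 48.7, n = 3). The groups did not overlap from BF-2d to BF-4d or from BF-4d to BF-8d, and replicate 2 of BF-8d was 2.60 times the mean of the other 2. BF-8d was at least 373-fold above BF-0d. In IMF, 1, 2 and 4 reads were found on day 8 and none before, and the mean of BF-8d was 468 times that of IMF-8d. With so few reads in IMF this ratio is loose: it was 768 without IMF-8d replicate 3 and 305 without BF-8d replicate 2.

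novel_miR_623 also had no read in BF-0d, and 12 reads in BF-2d replicate 1 with none in the other 2. In BF-4d it had 66.9, 4.02 and 5.74 TPM and in BF-8d 40.2, 43.5 and 25.8 TPM (36.5 ± 9.41, n = 3). BF-4d replicate 1 was above all BF-8d libraries, while the other 2 BF-4d libraries were below all of them. BF-8d was at least 169-fold above BF-0d. In IMF it was seen on day 8 only, with 1, 3 and 6 reads, and the mean of BF-8d was 149 times that of IMF-8d, or 264 times without IMF-8d replicate 3.

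Of the 3 low ones, novel_miR_476 came first. It had no read in BF-0d, 2, 3 and 0 reads in BF-2d, 6.44, 0.423 and 0.718 TPM in BF-4d, and 7.63, 11.9 and 8.48 TPM in BF-8d (9.35 ± 2.28, n = 3). The days did not overlap from BF-2d onwards. BF-8d was at least 43.3-fold above BF-0d. IMF held 2 reads in all, both in IMF-8d replicate 1, which gives a ratio of BF-8d to IMF-8d, taken over the summed reads and summed depth of each group, of 183 with a 95% counting interval of 50.1 to 1523.

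novel_miR_783 had 5 reads in BF-2d, all in replicate 1. In BF-4d it had 2.93, 0.317 and 0.180 TPM and in BF-8d 5.69, 12.1 and 6.05 TPM (7.95 ± 3.60, n = 3), so that BF-8d stood above BF-4d while BF-4d overlapped BF-2d. BF-8d was at least 36.8-fold above BF-0d, which had no read. A single read in IMF-8d replicate 1 was all that was found in IMF, and the ratio of BF-8d to IMF-8d over summed reads was 305 (95% counting interval 54.0 to 12110).

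novel_miR_994 appeared last. It had no read in BF-0d or BF-2d, 12, 1 and 0 reads in BF-4d (1.41 TPM in replicate 1), and 8.10, 9.19 and 5.25 TPM in BF-8d (7.51 ± 2.04, n = 3). Of its 200 reads, 93.5% came from BF-8d. No read was found in the 12 IMF libraries, and BF-8d was at least 34.8-fold above BF-0d and at least 34.2-fold above IMF-8d.

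novel_miR_298 was the only one of the 8 to pass 2 TPM in IMF. In BF it had 2 reads in all on day 0, 3.34, 3.13 and 0.454 TPM on day 2, 28.3, 59.6 and 62.4 TPM on day 4, and 50.5, 136 and 129 TPM on day 8 (105 ± 47.3, n = 3). The rise from day 2 to day 4 was 21.7-fold with no overlap, and days 4 and 8 overlapped. The ratio of BF-8d to BF-0d, again over summed reads, was 1906, with a 95% counting interval of 527 to 15750. In IMF the level was at most 0.804 TPM up to day 4, where 3 reads were found in replicate 1 and none in the others, and 24.9, 21.4 and 21.6 TPM on day 8 (22.6 ± 1.94). The same kind of ratio for IMF-8d to IMF-4d was 281 (95% counting interval 95.9 to 1365). Against day 0, the mean of IMF-8d was 88.6 times that of IMF-0d. That was 413.5 times without IMF-0d replicate 1 and 59.0 times without IMF-0d replicate 3. The IMF libraries of day 8 were above those of BF-2d and below those of BF-4d, and BF-8d was 4.64-fold above IMF-8d.

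novel_miR_1222, whose sequence is a repeat, was the only one with reads in all 24 libraries. It had 0.633, 0.729 and 1.07 TPM in BF-0d, 1.73, 1.60 and 0.795 in BF-2d, 10.7, 1.59 and 3.68 in BF-4d and 21.3, 67.6 and 34.5 in BF-8d (41.1 ± 23.8, n = 3). BF-4d overlapped BF-2d, and BF-8d was above all other groups. BF-8d was 50.8-fold above BF-0d. In the 12 IMF libraries it stayed between 0.468 and 1.70 TPM with no order of the days, and BF-8d was 45.9-fold above IMF-8d.

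Set side by side over the whole course, the log2 fold changes on the log2(TPM + 1) scale from day 0 to day 8 were 6.84 (standard error 0.23) in BF and 0.68 (0.20) in IMF for novel_miR_21. For novel_miR_298 they were 6.54 (0.31) in BF and 4.27 (0.21) in IMF. For novel_miR_848 they were 6.20 (0.31) and 0.22 (0.09), and for novel_miR_1222 4.40 (0.32) and -0.11 (0.19). The other 4 ran from 3.06 (novel_miR_994) to 5.20 (novel_miR_623) in BF and from 0 to 0.31 in IMF. The pseudocount of 1 TPM makes these values understate the change wherever the level on day 0 is at or near 0. Past the criteria of the study (fold change above 1.5 and a Benjamini-Hochberg FDR under 0.05, here with limma) were all 8 from BF-0d to BF-8d, where 27.9% of the 430 miRNAs tested were called higher (22.6% after median-of-ratios scaling). All 8 were also past them as higher in BF-8d than in IMF-8d, against a share of 25.1% (14.9% after that scaling). From IMF-0d to IMF-8d, novel_miR_21 and novel_miR_298 were past them, against 19.8%. Since the 8 were chosen for these very values, nothing is read from the counts. The 3 libraries did not overlap for 8 of the 8 in the first comparison (32.8% of all miRNAs), for 8 in the second (34.9%) and for 4 in the third (30.9%). The median log2 fold change of the 8 from BF-0d to BF-8d was 4.80, and that of all miRNAs tested 0.15.

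**Figure D3:**
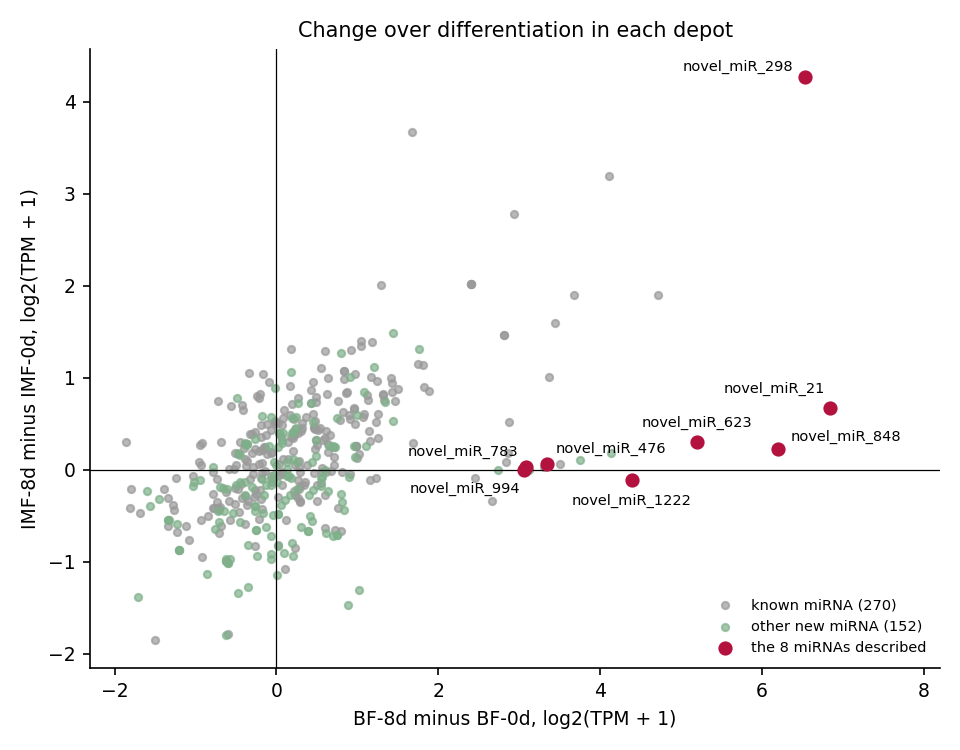
Difference of mean log2(TPM + 1) between day 8 and day 0 in BF (horizontal) and in IMF (vertical) for the 430 miRNAs tested, with known miRNAs in grey, other new ones in green and the 8 described in red. novel_miR_298 is at the top right (6.54 and 4.27), and the other 7 lie far to the right with a difference in IMF between -0.11 and 0.68.

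Step by step, 3 of the 8 were past the criteria from BF-2d to BF-4d (novel_miR_21, novel_miR_298 and novel_miR_623), where 5.81% of all miRNAs were called higher (3.95% after median-of-ratios scaling, which left novel_miR_298 of the 3). Another 3 were past them from BF-4d to BF-8d (novel_miR_783, novel_miR_994 and novel_miR_1222), against 2.33%. From IMF-4d to IMF-8d it was novel_miR_298 only, against 12.3% (8.6% after that scaling). On day 4, 6 were higher in BF than in IMF, all but novel_miR_783 and novel_miR_994, against 28.8% (15.8%, and 5 of the 8, after that scaling). Libraries did not overlap for 5 of the 8 from BF-2d to BF-4d (24.4% of all), for 5 from BF-4d to BF-8d (12.6%), for 4 from IMF-4d to IMF-8d (30.5%) and for 7 between BF-4d and IMF-4d (41.2%). These comparisons share groups with each other and with those of the whole course, so the counts are not separate pieces of evidence. The rule that chose the 8 used these groups too, and nothing is read from the calls of the steps either.

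The counts of the steps within BF depend on single libraries, while that from BF-0d to BF-8d stayed at 8 whichever library was left out. Replicate 1 of BF-4d was above the mean of replicates 2 and 3 by more than 1 on the log2(TPM + 1) scale for 7 of the 8. Such a gap was found for 18 of the 430 miRNAs tested (4.19%). novel_miR_21, novel_miR_848 and novel_miR_623 had the 3 largest gaps of all, with 18.7, 21.5 and 13.7 times the mean of the other 2 libraries. The ratio was 11.8 for novel_miR_783, 11.3 for novel_miR_476 and 4.05 for novel_miR_1222. novel_miR_298 went the other way, at 0.465 times the others. Without this library, the level rose from BF-4d to BF-8d 20.4-fold for novel_miR_21 in place of 2.96-fold, 7.48-fold for novel_miR_623 in place of 1.43-fold and 46.3-fold for novel_miR_848 in place of 5.91-fold (3.85-fold without BF-8d replicate 2 instead), and the days then overlapped for novel_miR_298 only. The number of the 8 past the limma criteria from BF-4d to BF-8d was then 7 (30 of all 430 miRNAs), and it was 0, as it was for all 430, without BF-4d replicate 2 or without BF-8d replicate 2 (on all libraries, 2 with edgeR and 2 with DESeq2, which gave novel_miR_623 and novel_miR_848 no adjusted p). An unadjusted p under 0.05 was held by 7 and 6 of the 8 after these removals, and by 72 of all 430 (16.7%) after each. Since the 8 were chosen on these values, nothing is read from that difference. From BF-2d to BF-4d the number past the criteria was 4 without BF-4d replicate 1, with 78 of all 430 called. It was 1 without BF-4d replicate 2 or 3 or without BF-2d replicate 2 or 3, with 2 to 11 of all called. From IMF-0d to IMF-8d it was 1 without any library but IMF-8d replicate 1.

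The same library held 8538813 reads, against 9453473 and 11142010 in replicates 2 and 3, and new miRNAs took 0.337% of its reads against 0.361% and 0.329%. The 10 miRNAs of adipocyte differentiation summed to 225500 TPM in it and to 222000 and 193100 TPM in the other 2, most of it from ssc-miR-148a-3p and ssc-miR-143-3p. Of the 10, 3 were higher in it than in both other libraries and 4 lower, such as ssc-miR-30c-5p (193 against 541 and 414 TPM) and ssc-miR-210 (140.2 against 192.1 and 255.7). The 5 known to fall in adipogenesis summed to 10990 TPM against 10060 and 12330, with 3 higher in it than in both others, such as ssc-miR-27a (596.8 against 305.9 and 486.7), and 1 lower. The muscle list summed to 1526 TPM against 1042 and 1145, nearly all of it ssc-miR-1 (1500 against 1011 and 1099), while ssc-miR-133a-3p was lower there (11.8 against 21.9 and 30.3) and ssc-miR-206 was at 0 in each. The endothelial pair summed to 86.4 against 53.6 and 66.2, and the blood and immune list to 2.81 against 3.70 and 6.37, with 3, 3 and 2 of its 7 members at 0. In BF-2d it was also replicate 1 that held all reads of novel_miR_21, novel_miR_623, novel_miR_783 and novel_miR_848.

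How that library sat among the miRNAs that rose most in BF separates novel_miR_298 from the other 7. A difference of over 2 between BF-8d and BF-0d, a bound set after the values were seen, was held by 30 miRNAs. Of the 12 new ones, 11 were higher in BF-4d replicate 1 than in the other BF-4d libraries, the exception being novel_miR_298. Of the 18 known ones, 16 were lower in it, the exceptions being ssc-miR-4332 and ssc-miR-10386. These 16 hold 13 different patterns, since ssc-miR-218, ssc-miR-218-5p and ssc-miR-218b differ by less than 0.1 (log2) in every library, as do ssc-miR-129a-5p and ssc-miR-129b. The 13 that were higher in that library changed by between -0.11 and 0.68 from IMF-0d to IMF-8d, and the 17 that were lower by between -0.34 and 4.27. This is a description of 1 library against 2.

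**Figure D4:**
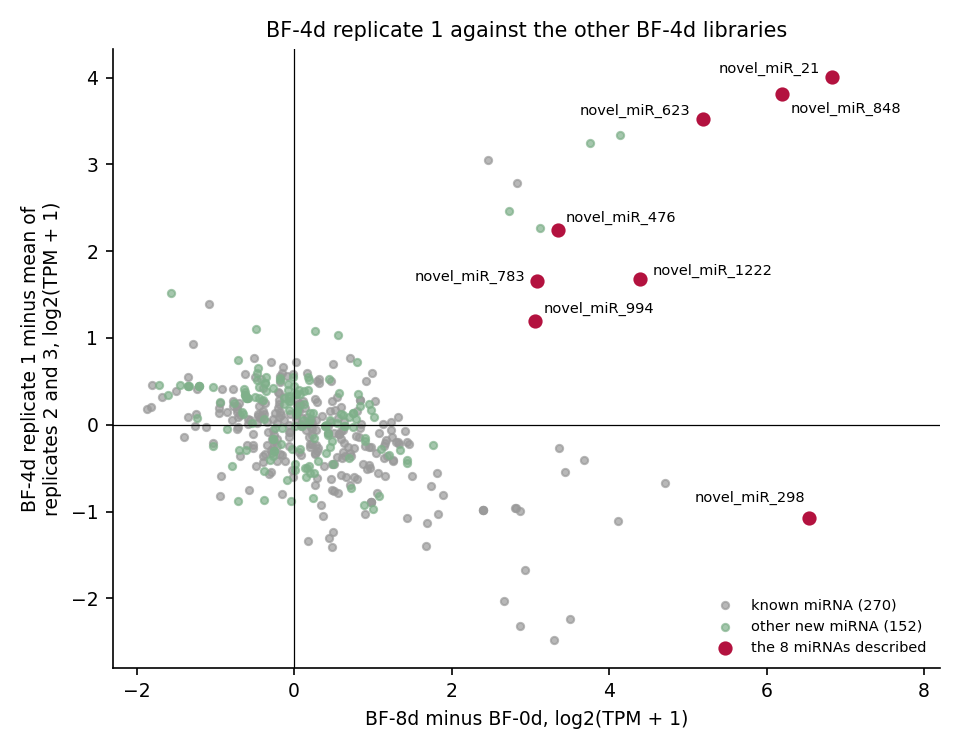
Difference of mean log2(TPM + 1) between BF-8d and BF-0d (horizontal) against the difference between BF-4d replicate 1 and the mean of BF-4d replicates 2 and 3 (vertical) for the 430 miRNAs tested, with colours for known (grey), other new (green) and the 8 described (red). The 30 miRNAs beyond 2 on the horizontal axis fall into 13 above zero, by 1.19 to 4.00, and 17 below it, at -0.26 to -2.48.

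The miRNAs most like the 8 in their pattern were found by Pearson's correlation of log2(mean TPM + 1) over the 8 group means, which is a description of few points that share the rise in BF-8d. For 7 of the 8, the nearest came from a small set: novel_miR_39, novel_miR_236, novel_miR_266, novel_miR_744, ssc-miR-4332 and ssc-miR-10386, with novel_miR_1050 besides for novel_miR_783. novel_miR_21 was most like ssc-miR-4332 (r = 0.996), novel_miR_623 likewise (0.995), novel_miR_848 most like novel_miR_266 (0.999), novel_miR_476 most like novel_miR_744 (0.999), and novel_miR_783, novel_miR_994 and novel_miR_1222 most like novel_miR_39 (0.988, 0.961 and 0.990). The nearest known miRNA was ssc-miR-4332 for novel_miR_476 (0.970) and novel_miR_848 (0.983) as well, ssc-miR-221-5p for novel_miR_783 (0.933) and novel_miR_1222 (0.934), and ssc-miR-29a-5p for novel_miR_994 (0.909). The mature forms of 3 of this set were at hand.
novel_miR_266: uUUUUGAAguguaaauuca
ssc-miR-4332: cACGGCCGccgccgggcgcc
ssc-miR-10386: gUCGUCCUcucccucccuccu
novel_miR_266, at 19 nt as short as novel_miR_623, lies like novel_miR_848 antisense to an intron, here of GXYLT1. It had no read in BF-0d or BF-2d, 10.3, 0.212 and 0.180 TPM in BF-4d and 10.7, 17.9 and 10.1 TPM in BF-8d. ssc-miR-4332, with 95% G and C, had 15.0, 0.846 and 1.79 TPM in BF-4d and 4.52, 14.7 and 7.27 TPM in BF-8d, so its BF-4d replicate 1 was as high as its highest BF-8d library. ssc-miR-10386 had 26.6, 2.96 and 1.71 TPM in BF-4d and 3.74, 13.9 and 6.05 TPM in BF-8d. The sequence of ssc-miR-4332 had no exact copy in the genome used, and that of ssc-miR-10386 had 3.

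novel_miR_298 had other company, all of it known. It was most like ssc-miR-324 (r = 0.989), ssc-miR-132 (0.972) and ssc-miR-532-5p (0.968), whose mean levels were also higher on day 8 than on day 0 in both sources. ssc-miR-132 had 27.4 to 30.4 TPM in BF-0d and 83.2 to 116 TPM in BF-8d, and 26.9 to 32.7 TPM in IMF-0d and 58.4 to 73.7 TPM in IMF-8d. These levels lie far above those of novel_miR_298 on day 0 and near them on day 8 of BF.

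No reads at all in the 12 libraries of BF-0d, IMF-0d, IMF-2d and IMF-4d were found for 10 of the 430 miRNAs tested, none of them known. They are novel_miR_21, novel_miR_476, novel_miR_623, novel_miR_783, novel_miR_848 and novel_miR_994, and besides them novel_miR_39, novel_miR_236, novel_miR_266 and novel_miR_744, with means of 7.84, 6.06, 12.9 and 17.6 TPM in BF-8d. None of the 8 had the same value as another miRNA in all 24 libraries, which 119 of the 1587 did, and none came within 0.1 of another on the log2(TPM + 1) scale in all libraries.

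Other short miRNAs were few. Besides the members described, 4 of the new miRNAs tested have a known mature length of 18 or 19 nt: novel_miR_145, novel_miR_1059, novel_miR_1008 and novel_miR_266. Only novel_miR_266 was past the criteria from BF-0d to BF-8d, and the median log2 fold change of the 4 was -0.02. Of the 62 tested new miRNAs of 20 nt or more, 9 were called higher and 17 lower, with a median of 0.04. The 8 described are left out of all these classes, those by length and those by place. Of the other new miRNAs tested that lie outside genes, 3 of 25 were higher and 9 lower in BF-8d than in BF-0d, with a median of -0.13. Of those in introns of either strand, 4 of 34 were higher and 5 lower, with a median of 0.12. Of the 4 lying sense in exons of protein-coding genes, 2 were higher and 2 lower, with a median of 0.36. Of all 430 miRNAs tested, known and new, 120 were higher (27.9%) and 64 lower, with a median of 0.15. The sequence list at hand held fewer than all new miRNAs, so the counts of the classes cover only part of the 160.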

How the data were processed

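Small RNA reads of 24 libraries were matched by the authors to Sscrofa11.1 with Bowtie without mismatches. Annotated tRNA, rRNA and small nuclear and nucleolar RNA were taken out, known miRNAs were found by BLAST against miRBase, and new ones were predicted with miRDeep2. The deposited values, called TPM by the authors, are RPM, that is reads per 1000000 reads counted on miRNAs of a library. All values lay within 0.000569 of whole reads (100.0% within 0.001), so reads were recovered from them. The log2(TPM + 1) values were fitted with limma (3.58.1, R 4.3.3), with a moderated variance trend, on the 3 + 3 libraries of a comparison and the 430 miRNAs whose mean reached 1 TPM; the criteria were a fold change above 1.5 and an FDR under 0.05. Simulated reads for BF-0d vs BF-8d (430 miRNAs, 200 changed) gave 158 recovered at 2-fold and 190 at 4-fold, with 3 and 4 false calls. Alternatives were median-of-ratios scaling, a pseudocount of 0.1, a filter at 10 TPM or none, a common fit, a replicate block, edgeR (4.0.16) and DESeq2 (1.42.0) on the recovered reads, and leaving out each library.

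The 8 members, the marker lists and the miRNAs named for likeness follow rules written with earlier results of these data known: the 3 miRNAs of highest Pearson correlation with each member over the 8 group means, the nearest known miRNA, and any with the same sequence, the same values or a place within 10 kb. Bounds on fold changes take 3 reads per library as the floor when a group has no read; ratios against 1 to 3 reads have an exact 95% counting interval. Floors and intervals cover counting error only, since PCR copies cannot be told from separate molecules. Mature and precursor sequences were read from the list published with the study, which at hand held 358 known and 600 new miRNAs and 4 of the 8; sequences and places of the others were not analysed here. Precursors were matched exactly to Sscrofa11.1 (RefSeq assembly and annotation), and folded with RNAfold (2.7.2) at 37 °C.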

Additional observations from a re-analysis of the deposited data

How the results depend on the processing

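The 8 were chosen on these values, so the counts below describe the settings and give no support. From BF-0d to BF-8d and between BF-8d and IMF-8d the count was 8 under every alternative that kept all 8. A filter at a mean of 10 TPM keeps only novel_miR_21, novel_miR_298 and novel_miR_848, so its counts are at most 3: it gave 3 for both of these comparisons, 3 in place of 6 for BF-4d vs IMF-4d, 1 in place of 3 for BF-4d vs BF-8d and 2 in place of 1 for IMF-4d vs IMF-8d. For BF-2d vs BF-4d the count of 3 became 0 without a filter (0 of all 1587 miRNAs called), 1 after median-of-ratios scaling (23 of 430, against 26), 6 in a common fit of all 24 libraries (104) and 1 with edgeR (17), and 1 to 4 without 1 library (2 to 78). For BF-4d vs BF-8d the count of 3 became 0 without a filter (3 of 1587 called) and 6 in the common fit (81 of 430, against 13), and between 0 (without BF-4d replicate 2 or BF-8d replicate 2) and 7 (without BF-4d replicate 1) when 1 library was left out. For IMF-4d vs IMF-8d the count of 1 (56 of all 430) became 4 with a pseudocount of 0.1 (60), 2 with edgeR (65) and 2 with DESeq2 (62), and stayed at 1 without any 1 library (32 to 62). For IMF-0d vs IMF-8d the count of 2 (131) became 4 with a pseudocount of 0.1 (146), 1 without a filter (70 of 1587), 1 in the common fit (128) and 1 to 2 without 1 library (90 to 142). For BF-4d vs IMF-4d the count of 6 (156) became 1 without a filter (50 of 1587) and 4 to 7 without 1 library (123 to 171). Where limma gave 0, unadjusted p-values under 0.05 were held by 3 (BF-2d vs BF-4d without a filter; 9.7% of all), 5 (BF-4d vs BF-8d without a filter; 9.58%), 7 and 6 (without the libraries named; 16.7% each) of the 8. Without a filter the correction ran over 1587 miRNAs in place of 430; the cause of the other moves was not tested. DESeq2 gave no adjusted p for 3 of the 8 in BF-2d vs BF-4d, 2 in BF-4d vs BF-8d and 3 in BF-4d vs IMF-4d, and its counts there (3, 2 and 4) cover the others.

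No pairing by replicate number was seen: the correlations of same-numbered deviations ran from -0.329 to 0.259. In 5 of 21 same-numbered pairs, which reuse libraries across the 7 comparisons, the first library was best correlated with its own number. Deviations from a mean of 3 libraries also carry library noise, so this cannot tell whether equal numbers share a piglet. With a replicate block the count for BF-4d vs BF-8d was 5 in place of 3 (17 of all 430, against 13). None of the 747 log2 fold changes recomputed reversed a called direction, and 158 moved by more than the spread between replicates. Median-of-ratios scaling shifted the median change of all miRNAs by -0.15 in BF-0d vs BF-8d and IMF-4d vs IMF-8d, by 0.34 in BF-4d vs IMF-4d and by 0.25 in BF-8d vs IMF-8d, and moved none of the 56 values of the 8 beyond that spread. The 3 located outside genes were so by the precursor as well. Depth limits the low levels: in BF-8d replicate 3, the shallowest library, 3 reads are 0.605 TPM, so levels under that cannot be told from none in every library.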
